A study of Mus musculus with 21 samples.

Results

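The comparison described here sets tumours of mice given an antibody against PD-1 alone beside tumours of mice given placebo. It takes 11 of the 21 samples of a mouse experiment, 5 from the anti-PD1 arm and 6 from the placebo arm, chosen by the treatment named in their titles, and reads all 22206 probe sets of the array that are not controls. Hepa1-6 cells, a mouse hepatoma line, were implanted subcutaneously in female C57BL/6J mice 5 to 6 weeks old, and mice were assigned to arms at random once tumours measured 200 mm3. Placebo mice received the drug vehicle and a polyclonal IgG. Anti-PD1 mice received the antibody clone J43 at 10 mg/kg into the peritoneum every 3 days, 5 doses in all, and whether they also received the vehicle is not given in the sources used here. The other arms received lenvatinib, a kinase inhibitor, alone or with the antibody, and all tumours were taken on day 13, which was 1 day after the last antibody dose. RNA from 30 mg of each tumour was run on 1 Clariom S array. All 4 arms share the same line grown under the skin, not in the liver and were profiled as bulk tissue.

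PD-1 is an inhibitory receptor that T cells place on their surface after activation, and its ligands PD-L1 and PD-L2 are made by tumour cells, macrophages and dendritic cells. Engaged PD-1 recruits phosphatases that weaken signalling from the T cell receptor and from CD28, and blocking antibodies are used in liver cancer to relieve that restraint. Hepatomas also hold many macrophages, whose state affects how well T cells act in the tumour. The array measured the summed RNA of all these cells, so fewer cells of a type and less RNA per cell cannot be told apart.

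The values are log2 signals, on which a difference of 1 is a doubling, and differences are given as anti-PD1 minus placebo ± the standard error of the limma fit. Array medians of the 11 mice lay between 5.39 and 5.49. Placebo mice 4 and 6 and anti-PD1 mouse 1 had brighter hybridization controls, which are RNAs added just before the array is hybridised, at 11.46 to 11.69 against 10.34 to 10.91 in the other 8. The interquartile range of the probe-set signals was also narrower on these arrays, at 2.82, 2.74 and 2.41 against 3.00 to 3.23 in the other 8. Anti-PD1 mouse 1 stood apart further, with correlations of 0.84 to 0.92 with the other 10 arrays. Skeletal muscle genes were high in placebo mice 1 and 5 and anti-PD1 mouse 2, with list scores of 3.77, 3.66 and 2.92. Placebo mouse 3 stood at 1.10 and the rest at -1.67 to -1.14. Placebo mouse 3 was kept in the fits without the muscle-rich arrays. A list score averages a list's genes, each taken relative to its own mean across all 21 arrays. The labelled tissue held its defining markers: Alb, the albumin gene, lay at 7.56 to 12.46 (median 11.27) in placebo and at 11.45, 8.41, 12.45, 12.25 and 12.55 in anti-PD1 mice 1 to 5.

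No probe set passed at an adjusted p under 0.05 in limma with Benjamini-Hochberg adjustment, where the smallest adjusted p was 0.82, so none is called changed. At an unadjusted p under 0.05 lay 903 probe sets, 4.07% of all, with 596 lower (2.68%) and 307 higher (1.38%) in anti-PD1. Chance alone would place 1110 there. The arms did not overlap for 83 probe sets that lay lower in all anti-PD1 tumours (0.374%) and for 20 that lay higher in all of them (0.0901%). The median difference over all probe sets was 0.00 (-0.0020), with 50.4% below 0 and 49.6% above. These shares are the background for the gene lists that follow. Of the 51 lists, skeletal muscle had the lowest median (-1.47, with 18 of 18 members lower and none at an unadjusted p under 0.05). Next lay NADPH oxidase (-1.33), the DAP12 and FcR gamma receptors (-1.16) and other myeloid and T cell lists, while B cells (-0.05) and mast cells (-0.01) lay near 0. Wnt targets (0.63), MAP kinase feedback (0.49), mitosis (0.46) and hepatocyte genes (0.42) had the highest medians, and DNA replication stood at 0.14.

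**Figure D1:**
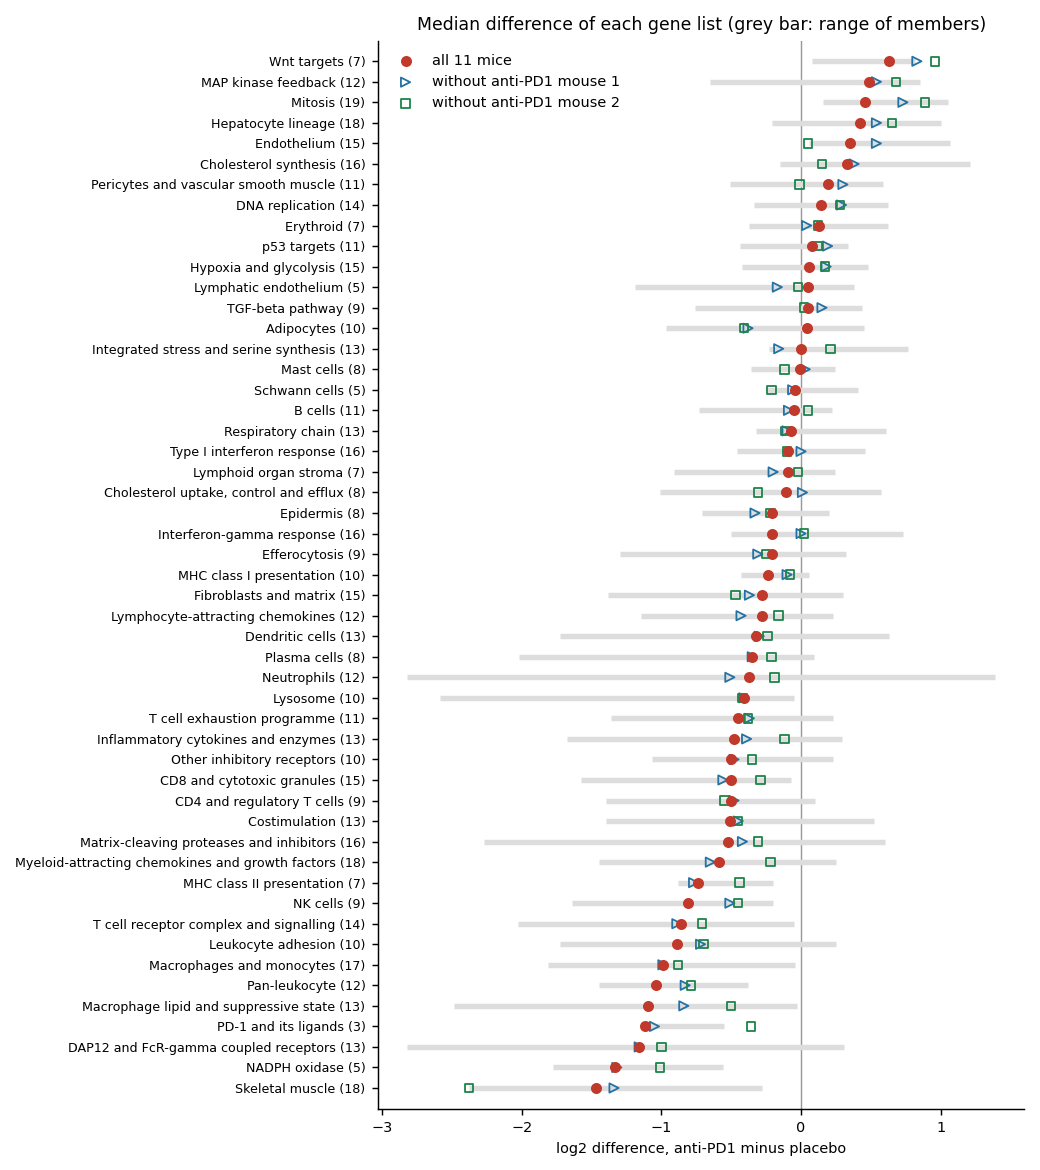
Median log2 difference of each of 51 gene lists, anti-PD1 minus placebo, with all 11 mice (red points), without anti-PD1 mouse 1 (triangles) and without anti-PD1 mouse 2 (squares). Grey bars span the members' differences, and the number of measured members is in brackets. NADPH oxidase and the DAP12 and FcR-gamma coupled receptors had medians of -1.33 and -1.16, and Wnt targets the highest median at 0.63.

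The target of the antibody was read first. Pdcd1, which encodes PD-1, lay between 5.79 and 7.16 (median 6.26) in placebo and at 5.23, 3.63, 5.59, 6.31 and 5.56 in anti-PD1 mice 1 to 5. Anti-PD1 mice 1, 2, 3 and 5 lay below every placebo tumour and mouse 4 lay within the placebo range, a difference of -1.12 ± 0.50 (unadjusted p = 0.0379). Cd274, which encodes PD-L1, lay between 7.96 and 9.80 (median 8.80) in placebo and at 8.20, 6.62, 8.86, 9.13 and 8.58 in anti-PD1 mice 1 to 5, with the arms overlapping (-0.55 ± 0.39). Pdcd1lg2, which encodes PD-L2, lay between 8.06 and 10.45 (median 8.93) in placebo and at 7.65, 4.92, 8.82, 10.04 and 8.48 in the anti-PD1 mice in that order, also with overlap (-1.13 ± 0.73). Mouse 2 was the lowest of all 11 for these 3 genes, and without it the differences of Pdcd1, Cd274 and Pdcd1lg2 were -0.71, -0.13 and -0.36. The Pdcd1 signal of mouse 2, at 3.63, lay below the negative-control median of 4.08. Without the muscle-rich arrays the median of the 3 moved from -1.12 to -0.29. A transcript level does not show how much PD-1 protein the antibody covered.

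Genes of the T cell receptor and its signalling lay below placebo for 14 of 14 members, with a median of -0.86 against 0.00 for all probe sets. Of them 8 were lower at an unadjusted p under 0.05, where 2.68% of all probe sets were, and 3 did not overlap, where 0.374% of all did. Cd3g, a signalling chain of the receptor complex, lay between 9.03 and 9.60 (median 9.16) in placebo and at 7.83, 4.65, 7.86, 8.56 and 7.27 in anti-PD1 mice 1 to 5. Every anti-PD1 tumour was below every placebo tumour, with mouse 2 far below the rest (-2.03 ± 0.54, 4.08-fold lower). Cd3d, another chain, had no overlap either, with placebo at 8.30 to 9.10 (median 8.65) and anti-PD1 mice at 7.33, 4.02, 7.82, 8.14 and 7.14 (-1.76 ± 0.55). Without mouse 2 the differences were -1.38 for Cd3g and -1.05 for Cd3d. The Cd3d signal of mouse 2, at 4.02, lay just below the negative-control median of 4.08. Lat, the membrane adaptor that passes the receptor's signal on, showed the same separation over a narrower range, with placebo at 7.48 to 7.99 (median 7.67) and anti-PD1 mice at 7.14, 5.86, 7.03, 7.33 and 6.52 (-0.95 ± 0.32). Cd3e stood at -1.27 ± 0.49, the adhesion receptor Cd2 at -0.93 ± 0.30 and the kinase Zap70 at -0.82 ± 0.38, each with overlap. Without mouse 2 the list median was -0.71 and 5 members were at an unadjusted p under 0.05.

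Cytotoxic genes varied within their list. All 15 members of the CD8 and cytotoxic list lay below placebo, with a median of -0.50, 6 at an unadjusted p under 0.05 and 1 without overlap. Without anti-PD1 mouse 2 the median was -0.29 and 3 were at that p. The gene without overlap was Ctsw, a cysteine protease of cytotoxic cells, at 6.00 to 6.94 (median 6.09) in placebo and 5.82, 4.11, 5.99, 5.95 and 5.22 in anti-PD1 mice (-0.83 ± 0.32). The CD8 beta chain Cd8b1 lay between 8.40 and 9.30 (median 8.69) in placebo and at 6.77, 4.92, 7.78, 8.75 and 7.48 in anti-PD1 mice 1 to 5, so that 4 of 5 lay below all placebo tumours (-1.58 ± 0.52). Without mouse 2 the differences were -0.50 for Ctsw and -1.02 for Cd8b1. The alpha chain Cd8a stood at -0.49 ± 0.51 and overlapped widely. The granule genes Cst7, Nkg7 and Gzmk stood at -1.37 ± 0.40, -1.25 ± 0.44 and -1.22 ± 0.45, with Nkg7 at -0.69 without mouse 2. Of other members, Gzmb, a granzyme, stood at -0.79 ± 0.56, the pore former Prf1 at -0.07 ± 0.38 and the cytokine Ifng at -0.15 ± 0.39. Prf1 and Ifng stood nearer to 0 than the list median, and Gzmb did not. For Prf1 and Ifng the sign depended on single mice.

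Natural killer cell genes lay below placebo for 9 of 9 members, with a median of -0.81 and 4 at an unadjusted p under 0.05. The median was -0.45 without anti-PD1 mouse 2 (3 at that p) and -0.51 without mouse 1 (2 at that p). Klrd1, which encodes CD94, stood at -1.64 ± 0.58 and Klrb1c, which encodes NK1.1, at -1.33 ± 0.47. Receptors of this family are close in sequence, and cross-hybridization among them was not tested. Costimulation genes lay below for 11 of 13, with a median of -0.51, 6 lower and 1 higher at an unadjusted p under 0.05. The number lower was 2 without anti-PD1 mouse 2 and 3 without mouse 1. The gene on the higher side was Cd70, the ligand of CD27, whose mean lay at or below the negative-control median in both arms (0.52 ± 0.21, or 0.29 without mouse 1). The ligand Cd86, which macrophages and dendritic cells show to CD28, lay between 7.04 and 8.29 (median 7.96) in placebo and at 5.63, 5.65, 6.66, 7.71 and 6.62 in anti-PD1 mice, with only mouse 4 inside the placebo range (-1.27 ± 0.37). Cd80 stood at -0.89 ± 0.32, Icos at -1.40 ± 0.56, Tnfrsf18, the GITR receptor of regulatory T cells, at -0.73 ± 0.24 and Tnfrsf4, which encodes OX40, at -0.93 ± 0.39.

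Genes of exhausted T cells and other inhibitory receptors were mixed. The exhaustion list had a median of -0.45, with 8 of 11 below placebo and 3 at an unadjusted p under 0.05, and a median of -0.11 without the muscle-rich arrays. Slamf6, a receptor of progenitor-like exhausted T cells, lay at 6.56 to 7.43 (median 6.70) in placebo and 4.75, 4.17, 5.48, 7.15 and 5.88 in anti-PD1 mice (-1.36 ± 0.47), with mice 1, 2, 3 and 5 below all placebo tumours and mouse 4 near the top of their range. Entpd1, an ectonucleotidase, stood at -0.90 ± 0.34. The list of other inhibitory receptors had 8 of 10 below placebo, 2 above (up to 0.23) and a median of -0.50. In it 1 member was at an unadjusted p under 0.05. Without the muscle-rich arrays its median was -0.29 with none at that p. Of checkpoint receptors on the lower side, Lair1 stood at -1.07 ± 0.40, Ctla4 at -0.77 ± 0.50 and Cd96 at -0.79 ± 0.43. Havcr2, which encodes TIM-3, stood at -0.48 ± 0.49 and Lag3 at -0.45 ± 0.43. B cell genes had a median of -0.05, with 7 of 11 below placebo and none at an unadjusted p under 0.05. Plasma cell genes lay below for 6 of 8, with a median of -0.35 and none at an unadjusted p under 0.05. The lowest was Jchain, which plasma cells need to join antibodies, at -2.02 ± 1.02, and the other 7 stood between -0.83 and 0.09.

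**Figure D2:**
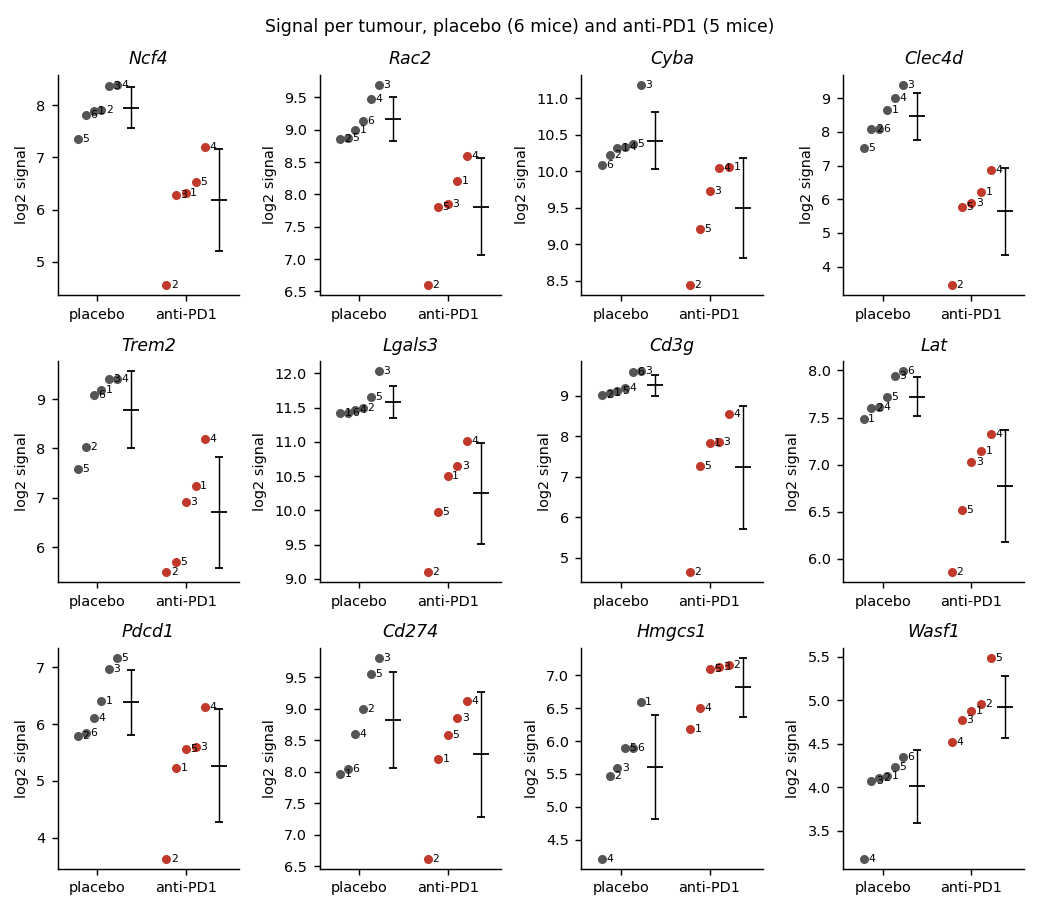
Log2 signal of 12 genes in each tumour, placebo in grey (6 mice) and anti-PD1 in red (5 mice), numbered by mouse. Black dashes are means with SD bars. Anti-PD1 mouse 2 was lowest for the leukocyte genes (Cd3g 4.65, Ncf4 4.55). Mouse 4 was the highest of its arm for them except for Cyba, where mouse 1 was.

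Macrophage and monocyte genes lay below placebo for 17 of 17 members, with a median of -0.99, and 12 were lower at an unadjusted p under 0.05, or 7 without anti-PD1 mouse 1 or without mouse 2. Lyz2, the lysozyme of macrophages and granulocytes, lay between 10.78 and 12.10 (median 11.93) in placebo and at 10.75, 9.32, 9.12, 11.43 and 8.46 in anti-PD1 mice (-1.81 ± 0.53). Mouse 4 lay inside the placebo range and the other 4 below it. C1qb, a chain of the first complement component, stood at -1.21 ± 0.38 and Ms4a7 at -1.45 ± 0.42. Csf1r, the receptor for macrophage growth factor, stood at -0.68 ± 0.34. Over all leukocytes, 12 of 12 shared genes lay below placebo with a median of -1.04 and 7 at an unadjusted p under 0.05, or 4 without mouse 2 and 3 without the muscle-rich arrays. Among them were Ptprc, the leukocyte phosphatase CD45, at -1.22 ± 0.43 and Vav1, a guanine nucleotide exchange factor, at -1.45 ± 0.49.

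A set of myeloid receptors signals through the adaptors DAP12 and the FcR gamma chain, which carry activating motifs for receptors that have none. Of 13 members 12 lay below placebo, with a median of -1.16, 10 at an unadjusted p under 0.05 and 2 without overlap, against shares of 2.68% and 0.374% over all probe sets. By list score, each of the 5 anti-PD1 tumours lay under all placebo scores, at -0.50, -1.82, -0.61, -0.04 and -0.86 against -0.01 to 0.91. Clec4d, a C-type lectin that pairs with the FcR gamma chain, had the smallest p of all named genes that were lower. It lay between 7.53 and 9.41 (median 8.37) in placebo and at 6.23, 3.45, 5.90, 6.86 and 5.77 in anti-PD1 mice 1 to 5. No tumours overlapped, and the difference was -2.82 ± 0.62, or 7.06-fold lower (unadjusted p = 0.000187, adjusted p = 0.82 in limma). The Clec4d signal of mouse 2, at 3.45, lay below the negative-control median of 4.08, so the size of the Clec4d difference rests in part on a background signal.

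Its partner lectin Clec4e lay at 6.15 to 8.01 (median 7.03) in placebo and 5.56, 5.40, 6.48, 5.76 and 5.40 in anti-PD1 mice, with overlap through mouse 3 only (-1.28 ± 0.37). The adaptors themselves stood at -1.50 ± 0.41 for Tyrobp, which encodes DAP12, and -1.40 ± 0.42 for Fcer1g, which encodes the FcR gamma chain. Trem2, a lipid-sensing receptor that needs DAP12, lay between 7.59 and 9.41 (median 9.14) in placebo and at 7.23, 5.50, 6.91, 8.19 and 5.69 in anti-PD1 mice (-2.08 ± 0.58). Here mouse 4 lay within the placebo range and the others below it. Among the activating Fc receptors, which bind antibody-coated targets, Fcgr1 showed no overlap, at 8.04 to 9.02 (median 8.41) in placebo and 7.89, 6.29, 7.74, 7.96 and 7.43 in anti-PD1 mice (-0.96 ± 0.35). Fcgr3 stood at -1.09 ± 0.36 and Fcgr4 at -1.29 ± 0.58, or -0.72 and -0.55 without mouse 2. The exception was Trem3, at 0.31 ± 0.18.

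Upstream sequences are shown for Fcgr4 and Slamf9, which lay low in anti-PD1 tumours and are genes of macrophages, and for Hmgcs1, which lay high. They are the 250 bases before the transcription start in RefSeq on GRCm38.p6, all on the plus strand, at chr1:171018676-171018925, chr1:172475110-172475359 and chr13:119690101-119690350. The first pair holds GAGGAAGT, a sequence of the kind bound by the myeloid factor PU.1, and the last holds TCACCCCA, the core of a sterol regulatory element. Capitals mark the match, on either strand.
Fcgr4: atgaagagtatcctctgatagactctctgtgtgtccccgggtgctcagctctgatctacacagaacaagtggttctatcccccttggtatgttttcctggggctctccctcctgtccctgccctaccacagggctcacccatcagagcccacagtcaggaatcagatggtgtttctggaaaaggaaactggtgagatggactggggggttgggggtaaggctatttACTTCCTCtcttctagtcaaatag
Slamf9: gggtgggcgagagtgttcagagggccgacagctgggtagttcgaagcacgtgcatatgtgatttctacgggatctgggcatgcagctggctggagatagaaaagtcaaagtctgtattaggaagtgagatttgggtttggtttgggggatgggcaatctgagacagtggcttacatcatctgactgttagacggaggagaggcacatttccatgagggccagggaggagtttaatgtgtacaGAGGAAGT
Hmgcs1: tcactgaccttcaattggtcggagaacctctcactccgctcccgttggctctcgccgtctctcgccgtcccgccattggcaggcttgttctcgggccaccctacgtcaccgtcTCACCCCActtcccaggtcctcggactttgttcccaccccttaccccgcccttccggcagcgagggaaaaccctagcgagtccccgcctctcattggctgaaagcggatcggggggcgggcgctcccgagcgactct
Of 32851 such windows in the table, 2.44% hold the first sequence and 1.34% the second on either strand, and no window shown holds both. Of the DAP12 and FcR gamma list 11 genes had a window and 1 held GAGGAAGT. So did 1 of 11 macrophage and monocyte genes and 0 of 3 NADPH oxidase genes with a window. Lists are counted by gene and the shares over all by window, so they are not like measures. Of the cholesterol synthesis list 13 had a window and 1 held TCACCCCA. These windows describe the genes and no binding was measured.

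The NADPH oxidase of phagocytes, which makes superoxide, lay below placebo in 5 of 5 measured subunits, all at an unadjusted p under 0.05 and 3 without overlap. Its median was -1.33, and all 5 anti-PD1 scores, from -1.90 to -0.06, lay below all placebo scores, from -0.04 to 0.89. The membrane core Cybb lay between 10.15 and 11.65 (median 11.29) in placebo and at 9.74, 8.49, 9.81, 11.21 and 9.67 in anti-PD1 mice, with mouse 4 inside the placebo range (-1.33 ± 0.39). Its partner Cyba lay at 10.08 to 11.19 (median 10.33) in placebo and 10.06, 8.44, 9.73, 10.04 and 9.21 in anti-PD1 mice, with no overlap although mice 1 and 4 came close to the lowest placebo tumour (-0.92 ± 0.33).

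Of the cytosolic subunits, Ncf4 lay between 7.35 and 8.40 (median 7.90) in placebo and at 6.32, 4.55, 6.28, 7.20 and 6.52 in anti-PD1 mice 1 to 5. All 5 lay below placebo, with a difference of -1.78 ± 0.42, 3.44-fold lower (unadjusted p = 0.000385). The organizer subunit Ncf1 stood at -0.56 ± 0.21 with mice 1, 2, 3 and 5 below all placebo tumours. Rac2, the blood cell GTPase that activates the complex, lay at 8.86 to 9.70 (median 9.06) in placebo and 8.21, 6.60, 7.85, 8.59 and 7.80 in anti-PD1 mice, again with no overlap (-1.36 ± 0.36). Rac2 is also in the list shared by all leukocytes, so these lists are not separate readings.

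Genes of lipid-laden and suppressive macrophages lay below placebo for 13 of 13 members, with a median of -1.10 and 7 at an unadjusted p under 0.05. Lgals3, which encodes galectin-3, lay between 11.42 and 12.03 (median 11.48) in placebo and at 10.50, 9.10, 10.65, 11.01 and 9.97 in anti-PD1 mice, with no overlap (-1.34 ± 0.34). Fabp5, a fatty acid carrier, had no overlap either but a smaller difference (-0.58 ± 0.22). Gpnmb, a membrane glycoprotein, stood at -1.68 ± 0.62, with mice 1 and 2 at 6.08 and 5.99 and the other 3 between 8.90 and 9.31. Arg1, the arginine-degrading enzyme of suppressive myeloid cells, ranged from 4.18 to 10.05 in anti-PD1 and from 6.45 to 10.49 in placebo (-1.10 ± 0.88). Mmp12, the macrophage elastase, showed 1 tumour apart: mouse 2 stood at 6.86 and the other 10 tumours between 11.41 and 12.79. Without mouse 2 its difference was -0.36, and the median of the list was -0.50. Without the muscle-rich arrays the list median was -0.53 and 2 members were at an unadjusted p under 0.05.

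The lysosome list had a median of -0.41, with 10 of 10 below placebo and 2 at an unadjusted p under 0.05. Its lowest member was Atp6v0d2, a subunit of the proton pump in macrophages and osteoclasts. It lay between 7.86 and 9.40 (median 8.87) in placebo and at 6.35, 3.71, 6.07, 8.49 and 5.97 in anti-PD1 mice, with only mouse 4 inside the placebo range (-2.59 ± 0.63, 6.01-fold lower). Its signal in mouse 2 lay below the negative-control median of 4.08. Cathepsin S, encoded by Ctss, stood at -1.04 ± 0.43, or -0.63 without mouse 2. Among genes for taking up dead cells, the scavenger receptor Stab1 stood at -1.10 ± 0.34 and the kinase Mertk at -1.30 ± 0.55, while the list as a whole had 6 of 9 below placebo and a median of -0.21.

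Leukocyte adhesion genes lay below placebo for 8 of 10 members, with a median of -0.89 and 5 at an unadjusted p under 0.05, and a median of -0.55 without the muscle-rich arrays. Itgb2, the shared chain of the leukocyte integrins, lay between 7.80 and 9.15 (median 8.16) in placebo and at 6.91, 5.44, 6.97, 8.13 and 6.26 in anti-PD1 mice (-1.55 ± 0.45). Its partners Itgam and Itgax stood at -1.25 ± 0.39 and -1.73 ± 0.60 (Itgax at -1.12 without mouse 2), and Selplg, the ligand of selectins, at -1.28 ± 0.39. The protease Adam8, made by migrating myeloid cells, lay at 8.64 to 9.95 (median 9.41) in placebo and 6.38, 5.39, 8.05, 8.87 and 6.62 in anti-PD1 mice (-2.27 ± 0.51). Mice 1, 2, 3 and 5 lay below every placebo tumour for Adam8, and mouse 4 did not. In the same list of proteases and inhibitors Timp3, an inhibitor, stood at 0.60 ± 0.20.

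Chemokines that attract myeloid cells had a median of -0.59, with 15 of 18 below placebo and 5 at an unadjusted p under 0.05. Without anti-PD1 mouse 2 the median was -0.22, with 12 of 18 below and 3 at that p. Ccl6 stood at -1.26 ± 0.35, Ccl9 at -1.45 ± 0.44 and Ccl8 at -1.30 ± 0.46. For Ccl8 mouse 2 stood at 8.04 against 10.27 to 12.20 in the other 10 tumours, and without it the difference was -0.67. Lymphocyte chemokines had a median of -0.28, with 9 of 12 below, and -0.16 without mouse 2. Cxcl16 stood at -1.03 ± 0.40 and its receptor Cxcr6 at -1.15 ± 0.42, and Ccl5 at -0.89 ± 0.39. Inflammatory genes included Il1rn, the interleukin-1 receptor antagonist, at -1.68 ± 0.70 and Tnf at -0.61 ± 0.29, within a list of 13 whose median was -0.48 with 2 at an unadjusted p under 0.05. Without mouse 2 that median was -0.12 with none at that p, Il1rn stood at -0.73 and Cxcl16 at -0.57, and without placebo mouse 2, 3 or 5 the median was -0.22, -0.20 or -0.29.

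Class II presentation genes lay below placebo for 7 of 7, with a median of -0.74 and 3 at an unadjusted p under 0.05. Without anti-PD1 mouse 2 the median was -0.44 with 1 at that p, and without the muscle-rich arrays -0.47 with none. H2-Aa, an alpha chain, lay between 10.49 and 11.16 (median 10.87) in placebo and at 10.24, 9.25, 10.29, 10.76 and 9.83 in anti-PD1 mice (-0.76 ± 0.26), and its beta partner H2-Ab1 stood at -0.88 ± 0.41. Of dendritic cell genes 12 of 13 lay below placebo with a median of -0.32, or -0.21 without placebo mouse 3. Batf3, a factor needed by cross-presenting dendritic cells, did not overlap, at 7.12 to 7.75 (median 7.23) in placebo and 6.36, 6.09, 7.05, 7.09 and 6.55 in anti-PD1 mice (-0.71 ± 0.25). Class I presentation lay nearer to placebo, with a median of -0.24, H2-K1 at -0.43 ± 0.36 and the light chain B2m at -0.04 ± 0.12.

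Interferon response lists lay nearer to 0. The interferon-gamma list had a median of -0.21 and the type I interferon list one of -0.09, and in neither did any gene reach an unadjusted p under 0.05. Over the alternatives run these medians ranged from -0.41 to 0.02 and from -0.25 to 0.03. Cxcl9, a chemokine induced by interferon-gamma, stood at -0.50 ± 0.48 and the enzyme Ido1 at 0.73 ± 0.51. Isg15, induced by type I interferon, stood at -0.46 ± 0.26. The interferon-gamma scores of anti-PD1 mice 3 and 4, at 0.37 and 0.43, lay in the upper part of the placebo range, and those of mice 1 and 2, at -0.94 and -1.07, near the lowest. No test of the difference between lists was run.

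Neutrophil genes split. Their lowest member was Clec4d, described above with the FcR gamma receptors and shared by both lists. Retnlg, made by mature neutrophils, lay between 7.18 and 8.67 (median 7.56) in placebo and at 6.27, 4.29, 6.49, 6.34 and 6.95 in anti-PD1 mice, with no overlap (-1.72 ± 0.45). Ngp and Camp, granule proteins made by maturing neutrophils, lay on the other side in single mice. Ngp stood at 7.98 and 7.64 in anti-PD1 mice 1 and 5 and at 3.58 to 5.13 in the other 9 tumours (1.39 ± 0.67). Camp stood at 8.50 and 6.74 in the same mice and at 3.78 to 6.09 in the rest (1.09 ± 0.59). S100a8, an abundant calcium-binding protein of neutrophils, reached 7.39 and 6.94 in those mice against 3.45 in mouse 2, with an arm difference of -0.76 ± 0.62. Without mouse 1 Ngp stood at 0.75 and Camp at 0.44. The lowest signals of Ngp, Camp and S100a8 lay below the negative-control median of 4.08. The list median was -0.37, with 10 of 12 below placebo, or -0.19 with 8 of 12 below without mouse 2. Erythroid genes, a sign of blood in the tissue, had a median of 0.13 over 7 measured members, with the haem synthesis gene Alas2 at 0.62 ± 0.21.

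Skeletal muscle aside, the lists of non-immune cell types had medians from -0.28, in fibroblasts, to 0.42, in hepatocytes. All 15 endothelial genes lay above, with a median of 0.35 and 1 at an unadjusted p under 0.05, where 1.38% of all probe sets were higher. That was Erg, a factor of endothelial identity, at 3.54 to 5.40 (median 4.69) in placebo and 5.44, 6.81, 5.04, 5.59 and 5.42 in anti-PD1 mice (1.07 ± 0.44). The lowest placebo signal of Erg lay below the negative-control median of 4.08. Kdr, the main VEGF receptor, stood at 0.76 ± 0.62 with mouse 2 at 8.91, and without mouse 2 the endothelial median was 0.05. Pdpn, which marks lymphatic vessels as well as some fibroblasts and macrophages, stood at -1.19 ± 0.48, the lowest of 5 lymphatic genes. The other 4 stood between -0.09 and 0.38 and the list median was 0.05. Fibroblast genes had a median of -0.28, with Lum, a collagen-binding proteoglycan, at -1.38 ± 0.92.

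Genes of dividing and hepatocyte-like cells, which the Hepa1-6 line expresses, lay mostly above placebo, none at an unadjusted p under 0.05. All 19 mitosis genes lay above, with a median of 0.46 that was 0.17 without anti-PD1 mouse 5 and 0.89 without mouse 2. DNA replication genes were split, with 9 of 14 above, 5 below and a median of 0.14, or -0.07 without mouse 5. Tpx2, a spindle protein, stood at 1.05 ± 0.64 and the proliferation antigen Mki67 at 0.16 ± 0.76. Mitosis scores ranged from -1.65 in anti-PD1 mouse 2 to 1.39 in mouse 5, and from -1.60 to 0.76 in placebo. The hepatocyte list had a median of 0.42, with 14 of 18 above and 4 below. The median was 0.14 without anti-PD1 mouse 5 and 0.05 among the arrays with dimmer controls. Hnf4a, the hepatocyte identity factor, stood at 0.97 ± 0.67. Wnt targets lay above for 7 of 7 with a median of 0.63 (0.32 without anti-PD1 mouse 3, 0.96 without mouse 2), including the receptor Lgr5 at 0.63 ± 0.45. Of genes fed by MAP kinase signalling, Spred1 and Spry4, which restrain it, stood at 0.51 ± 0.21 and 0.69 ± 0.30 and the immediate early gene Fos at -0.65 ± 0.31.

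Cholesterol synthesis genes lay above for 12 of 16, with a median of 0.33 and 2 at an unadjusted p under 0.05. The median was 0.15 without anti-PD1 mouse 2 or mouse 3, 0.18 without mouse 5 and 0.20 without placebo mouse 6, and among the 3 arrays with brighter controls it was -0.06 with 9 of 16 below. Hmgcs1, which makes the precursor of mevalonate, lay between 4.21 and 6.59 (median 5.74) in placebo and at 6.19, 7.16, 7.13, 6.50 and 7.10 in anti-PD1 mice (1.21 ± 0.35). Anti-PD1 mice 2, 3 and 5 lay above every placebo tumour. Sc5d, a late enzyme of the pathway, lay at 8.89 to 9.27 (median 9.05) in placebo and 9.68, 10.82, 9.07, 9.52 and 9.51 in anti-PD1 mice (0.66 ± 0.25, or 0.38 without mouse 2). Genes of cholesterol uptake, control and efflux lay on both sides, 4 lower and 4 higher, with a median of -0.11 and none at an unadjusted p under 0.05. They ran from Abca1, which exports cholesterol, at -1.01 ± 0.65 to Srebf2, the factor that drives the synthesis genes, at 0.57 ± 0.37.

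The 12 named genes with the smallest p on each side included members of the lists above, such as Clec4d and Hmgcs1, and other genes. On the lower side, beside Clec4d, Adam8, Ncf4, Atp6v0d2, Lgals3 and Rac2, were Hcst, the adaptor DAP10 of activating receptors, and Lat2, a membrane adaptor of myeloid and B cells. Hcst lay at 5.93 to 7.47 (median 6.88) in placebo and 5.66, 4.62, 5.49, 5.91 and 5.27 in anti-PD1 mice (-1.46 ± 0.38), without overlap. Lat2 stood at -1.67 ± 0.41 with mouse 4 inside the placebo range. Slamf9, a surface receptor of macrophages, lay at 7.01 to 8.31 (median 7.37) in placebo and 5.70, 5.80, 6.59, 6.86 and 5.90 in anti-PD1 mice (-1.32 ± 0.32), without overlap. S100a4, a calcium-binding protein, stood at -1.33 ± 0.33 and Zmynd15, a zinc finger protein, at -0.93 ± 0.21, both without overlap, and AB124611 at -1.49 ± 0.36 with overlap.

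On the higher side Wasf1, a regulator of actin branching, had the smallest p. It lay between 3.18 and 4.35 (median 4.12) in placebo and at 4.88, 4.95, 4.77, 4.52 and 5.48 in anti-PD1 mice 1 to 5, so every anti-PD1 tumour lay above every placebo tumour (0.91 ± 0.20, unadjusted p = 0.000213 in limma). The placebo range of Wasf1 includes the negative-control median of 4.08, so its placebo signal lay near background. Afdn, which encodes the junction protein afadin, also did not overlap, at 5.63 to 6.18 (median 6.15) in placebo and 6.68, 7.57, 6.40, 6.87 and 6.68 in anti-PD1 mice (0.79 ± 0.21). The scaffold proteins Dlg5 and Lin7c stood at 0.76 ± 0.20 and 0.58 ± 0.16, the transcription factor Mecom at 1.15 ± 0.29, and the nuclear transport factors Xpo1 and Ipo8 at 1.03 ± 0.27 and 0.69 ± 0.19. Tmem255a, Plekha6, Tmem8b and Fgf11 stood at 0.98 ± 0.25, 0.89 ± 0.24, 0.67 ± 0.19 and 0.68 ± 0.19, and Hmgcs1 completed the 12.

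The anti-PD1 tumours also differed among themselves. The SD of Cd3g was 1.52 in anti-PD1 (n = 5) and 0.26 in placebo (n = 6), and that of Ncf4 was 0.98 and 0.39. Mouse 2 had the lowest score of the 11 for pan-leukocyte, macrophage, T cell receptor, cytotoxic, natural killer and class II genes. It also had scores of 2.92 for skeletal muscle and 2.82 for adipocytes. Placebo mice 1 and 5, with muscle scores of 3.77 and 3.66, had pan-leukocyte scores of 0.20 and -0.01. Mouse 4, at the other end, had a pan-leukocyte score of 0.15 and lay among the placebo tumours, while mice 1, 3 and 5 stood at -1.05, -0.75 and -0.61.

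**Figure D3:**
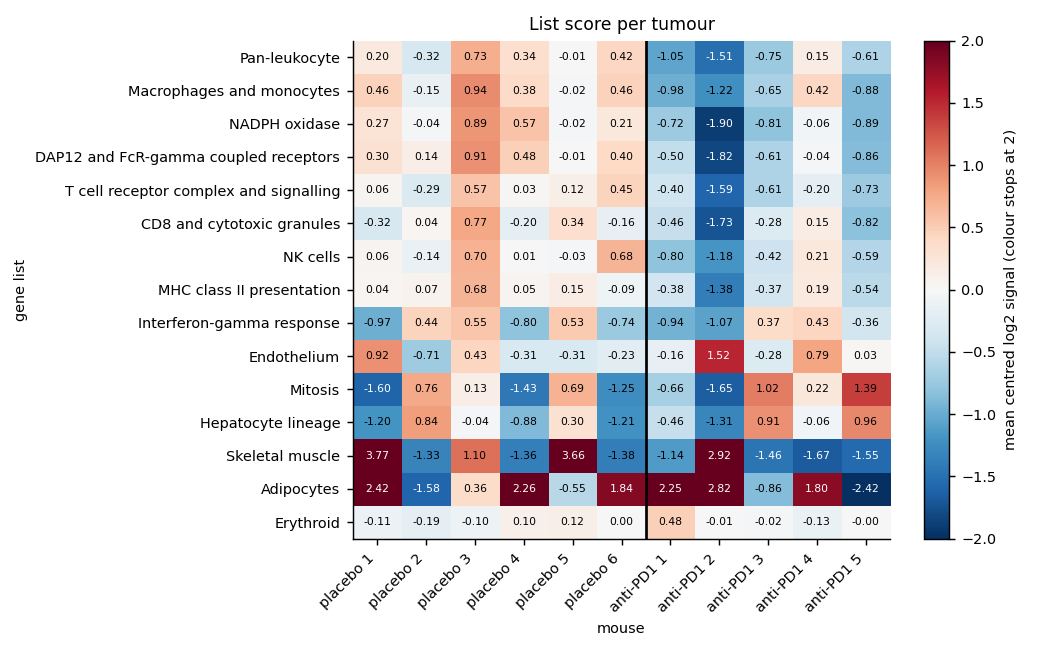
List scores (mean log2 signal of a list's genes, each relative to its own mean across all 21 arrays) for 15 lists in the 6 placebo and 5 anti-PD1 tumours. Blue is low and red is high, with colour ending at 2 on each side. The leukocyte lists are lowest in anti-PD1 mouse 2 and the muscle score is 2.92 there.

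The leukocyte lists differed in how far their medians moved without array sets. The muscle list itself had members at -2.38 to -0.28. Without the muscle-rich arrays the medians were -1.09 for NADPH oxidase, -1.14 for the DAP12 and FcR gamma receptors, -0.99 for macrophages and -0.70 for the T cell receptor list. Other medians moved further, from -1.10 to -0.53 for lipid-laden macrophages, -0.59 to -0.35 for myeloid chemokines, -0.48 to -0.24 for inflammatory genes and -0.50 to -0.36 for CD8 and cytotoxic genes. Among the 8 tumours with dimmer controls the first 4 lists stood at -1.17, -1.24, -1.05 and -0.88. Among the 3 with brighter controls, of which only mouse 1 had the antibody, they stood at -1.10, -0.99, -1.27 and -0.64, with CD8 and cytotoxic genes at -0.20, myeloid chemokines at -0.08 and neutrophil genes at 0.20. The part of tissue make-up in the differences between arms was not tested.

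The balance of lower and higher genes over the array depended on anti-PD1 mouse 1. Without it 714 probe sets were lower and 938 higher at an unadjusted p under 0.05, against 596 and 307 with it, and still none passed after adjustment. Without the arrays with brighter controls 678 were lower and 806 higher. Leaving out any other single mouse kept more lower than higher probe sets.

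**Figure D4:**
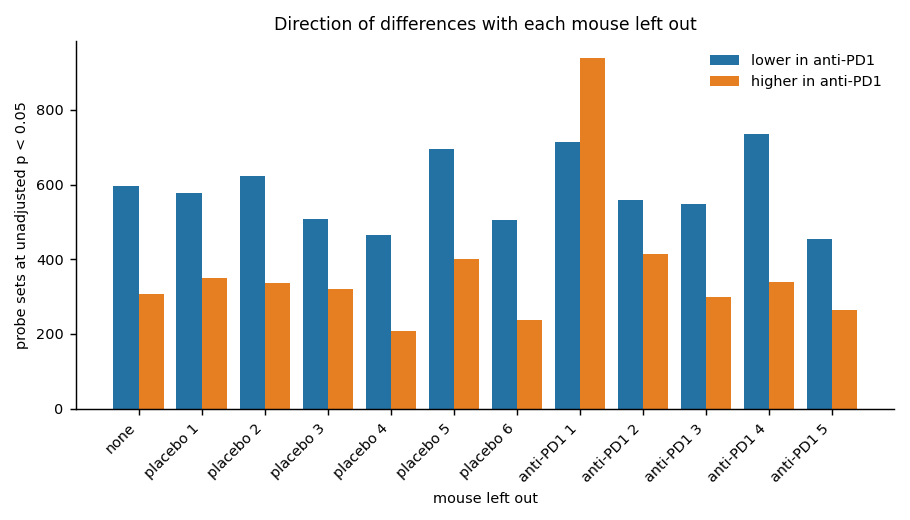
Number of probe sets at an unadjusted p under 0.05 that lay lower (blue) or higher (orange) in anti-PD1 than in placebo, with all mice and with each of the 11 mice left out in turn. With none left out 596 lay lower and 307 higher, and without anti-PD1 mouse 1 the order turned, to 714 and 938.

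The other antibody arm gives a direct comparison that shares no placebo tumour. In the combination minus anti-PD1 alone no probe set passed (smallest adjusted p = 0.124 in limma), and 1078 were higher at an unadjusted p under 0.05 (4.85%) and 619 lower (2.79%). The anti-PD1 tumours enter this difference as well as the one against placebo, with opposite sign, so the 2 are not separate readings. T cell receptor genes lay above anti-PD1 alone for 14 of 14 members, 13 at an unadjusted p under 0.05, and leukocyte genes for 12 of 12, all at an unadjusted p under 0.05, while 48.1% of all probe sets lay above. Combination mouse 4 had the highest T cell receptor and pan-leukocyte scores of that arm, 1.75 and 1.64. Combination mice 3 and 4 also stood apart for B cells (1.51 and 3.69, against -0.40 to 0.00 in the other 3) and lymphoid organ stroma (1.15 and 2.68, against -0.64 to -0.09). Without both mice 14 of 14 T cell receptor genes lay above, 12 at an unadjusted p under 0.05, with a median of 1.31 against 1.63, and of the leukocyte genes 12 of 12 lay above with 8 at that p. Without combination mouse 1, an array with brighter controls, 338 probe sets passed at an adjusted p under 0.05 in limma, and 87 without anti-PD1 mouse 4. Leaving out any other single mouse of these arms gave 0. Cd2 stood at 1.77 ± 0.32 (adjusted p = 0.124), Rac2 at 2.02 ± 0.37, Lat at 1.76 ± 0.34 and Atp6v0d2 at 3.11 ± 0.65. Afdn lay on the other side, at -0.98 ± 0.22.

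**Figure D5:**
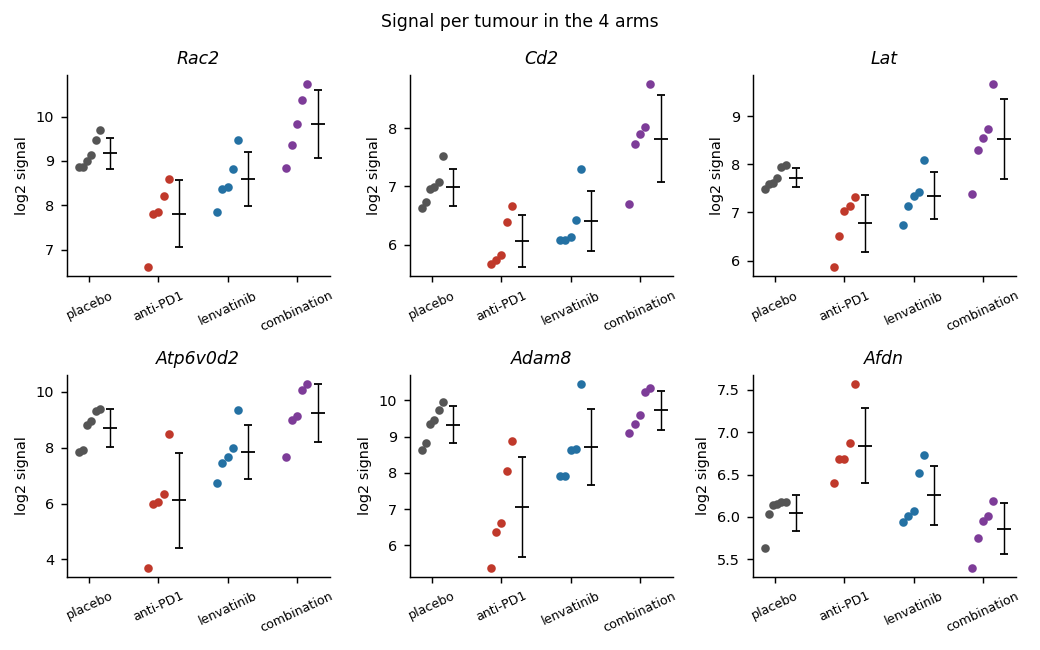
Log2 signal of 6 genes in every tumour of the 4 arms, with means and SD bars (6 placebo mice, 5 in each other arm). Rac2, Cd2, Lat, Atp6v0d2 and Adam8 are lowest on average in anti-PD1 alone, and Afdn is highest there. The 6 genes were chosen among those with a small p in anti-PD1 minus placebo, so their place in that arm is not a separate reading.

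Set side by side, Rac2 averaged 9.17 ± 0.34 in placebo (SD, n = 6), 7.81 ± 0.75 in anti-PD1, 9.82 ± 0.76 in the combination and 8.59 ± 0.61 in lenvatinib (SD, n = 5 each). The difference of lenvatinib alone against placebo was -0.58 ± 0.36 for Rac2, and that of the combination 0.65 ± 0.36, both with the same placebo tumours. Cd2 averaged 6.99 ± 0.32 in placebo (SD, n = 6), 6.06 ± 0.45 in anti-PD1, 7.83 ± 0.74 in the combination and 6.40 ± 0.52 in lenvatinib (SD, n = 5 each). Whether the antibody's difference was the same with and without lenvatinib was tested as an interaction, in which no probe set passed (smallest adjusted p = 0.151 in limma, with 1266 higher, 5.7%, and 736 lower, 3.31%, at an unadjusted p under 0.05). This contrast holds the anti-PD1 minus placebo difference with opposite sign. Rac2, Clec4d and Cd2 were named for a small p in that difference, over all genes or within a list. The contrast is therefore not a separate reading of them. For Cd2 the interaction was 2.35 ± 0.44, for Rac2 2.60 ± 0.51 and for Clec4d 4.10 ± 0.90, each with an adjusted p of 0.151 in limma. Here 320 probe sets passed without combination mouse 1, 81 without lenvatinib mouse 5 and 7 without anti-PD1 mouse 4, and 0 without any other single mouse.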

How the data were processed

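Tumour RNA of 21 mice was measured on Clariom S arrays, 1 per mouse. Per the submitters' processing notes the authors used oligo and RMA, and the deposited values are log2 signals. Neither versions nor the genome build is given in the sources used here. RMA equalizes probe intensities between arrays, which can hide a shift common to most genes, and the summarized values still differed in spread.

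Of 29129 table rows, 6923 were controls and were not used, and all 22206 other probe sets were tested without a filter. Platform annotation gave 1 symbol to 19572 probe sets, and 2634 are unnamed here. Group means of all 4 arms were fitted over 21 arrays with limma 3.58.1 (lmFit, eBayes; R 4.3.3), two-sided, with Benjamini-Hochberg adjustment over all probe sets within a contrast and a threshold of 0.05. The code was tested on simulated data. Each mouse is a separate animal, so p-values reflect variation among mice, and precision is set by the number of arrays.

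The 51 gene lists hold 616 genes, of which 562 were measured. The comparison, members and lists were chosen with earlier results of these data known, so they are described by counts and medians and not tested. Named genes were PD-1 and its ligands, the 12 genes on each side with the smallest p (without provisional names or probe sets at or below the negative-control median in both arms), up to 4 of each list with the smallest p, and members needed to describe a list by role. Promoter windows were matched by symbol in a RefSeq table, and their motifs were chosen with the windows in view.

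Alternatives were a fit of the 2 arms, array weights, cyclic loess, trend and robust eBayes, dropping probe sets under the 40th percentile of mean signal, named probe sets alone, the hybridization control as a covariate, the mouse number as a block, leaving out each mouse, the 5 muscle-rich arrays or the 6 arrays with bright controls, and, added after the data were seen, bright controls as a batch and, for the combination contrasts, leaving out each mouse or combination mice 3 and 4 together.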

Additional observations from a re-analysis of the deposited data

Results flagged for a closer look

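Of 348 sets of values checked (the 5 anti-PD1 or the 6 placebo tumours, for each list score and named gene), 26 had their highest or lowest tumour farther from the nearest other than Dixon's 95% critical value allows. Chance gives about 1 in 20 such sets.

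In anti-PD1 mouse 2 the skeletal muscle score stood high at 2.92 and the score for integrated stress and serine synthesis low at -0.92. The same tumour stood low for the T cell genes Cd3d (4.02) and Zap70 (4.89), the neutrophil gene Retnlg (4.29), the chemokine Cxcl9 (7.11), the elastase Mmp12 (6.86) and the hepatocyte gene Alb (8.41). Anti-PD1 mouse 4 stood above the rest of its arm for Cst7 (8.55) and Csf1r (9.67). Anti-PD1 mouse 1, whose array had bright controls, had an erythroid score of 0.48, a Cd70 signal of 4.01, the highest of its arm, and a Mecom signal of 5.74, the lowest of its arm.

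Placebo mouse 3 stood above the rest of its arm for the CD4 and regulatory T cell score (0.55), the class II score (0.68), the cytotoxic genes Ctsw (6.94) and Gzmk (6.83), and the myeloid genes Fcgr4 (9.41), Cyba (11.19) and Ctss (11.18). Placebo mouse 1 stood high for the Schwann cell score (1.02) and the respiratory chain score (0.91). Placebo mouse 6 stood high for the neutrophil granule genes Ngp (5.13) and Camp (6.09), and placebo mouse 4 low for Wasf1 (3.18) and Afdn (5.63).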

How the results depend on the processing

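The comparison rests on 5 and 6 mice with uneven tissue, and the part of either in the result was not tested. Over 22 alternatives no probe set passed in limma after adjustment in anti-PD1 against placebo, and none of the named genes did. At an unadjusted p under 0.05, leaving out single mice gave 454 to 735 lower and 208 to 938 higher probe sets, the last without anti-PD1 mouse 1. The higher count was 990 with array weights, 484 after cyclic loess, 187 with the filter, 520 with the control signal as a covariate, 483 with bright controls as a batch (lower count 899) and 806 without the bright arrays. With array weights 872 lay lower, with cyclic loess 587 and without the bright arrays 678. With the mouse number as a replicate block, 0 passed and 594 and 268 lay lower and higher. Same-numbered mice correlated at -0.63 to 0.54 in their deviations from the arm means. The number was not used as a pairing in the main fit, and the block changed no call.

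Of the 51 list medians, 28 lay below 0 and 7 above 0 in every alternative run. Beyond the spread between mice moved the exhaustion list (-0.11 without the muscle-rich arrays), the macrophage lipid list (-0.50 without anti-PD1 mouse 2, with -1.47 without mouse 4 at the other end), the efferocytosis list (-0.59 with the filter) and the lymphatic list (-0.17 without anti-PD1 mouse 1, up to 0.22 without placebo mouse 6). The cause was not tested.

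None of the genes that changed sign was near the threshold. Without the muscle-rich arrays Cd8a stood at 0.08, Ifng at 0.00, Prf1 at 0.25 and Arg1 at 0.18. With single mice left out Ifng ranged from -0.35 to 0.08, Prf1 from -0.22 to 0.15, B2m from -0.09 to 0.02 and Mki67 from -0.33 to 0.73. B2m stood at 0.05 after cyclic loess and Mki67 at -0.01 with bright controls as a batch.

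For the combination arm, single mice were left out in fits added after the data were seen. The combination minus anti-PD1 gave 0 to 338 probe sets past the threshold, and the interaction 0 to 320, with 510 to 1245 lower at an unadjusted p under 0.05, the last without anti-PD1 mouse 1.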
